A study of Bos taurus with 8 samples.

Results

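DNA replication and S phase genes were followed in single cells of bovine skeletal muscle, from the fresh tissue through long-term culture. The set held 39 named genes with textbook roles in copying DNA, chosen with earlier results of these data known. It was matched to the gene symbols of the deposited count tables, where 38 of the 21880 genes of the table carried such a symbol. UNG was not analysed here. Cells came from the semitendinosus muscle of 10 Belgian Blue cattle and were cultured per donor animal in serum-free growth medium (SFGM). The timepoints were unsorted cells directly after isolation (Muscle, 10 donors), unsorted cells after 72 h on fibronectin (passage 0, P0, 9 donors), and passages 2, 5 and 8 (P2, P5 and P8, 9 donors each). After P0 each donor entered only 1 kind of culture: donors 1, 2 and 9 stayed unsorted on fibronectin, donors 5, 6 and 10 were sorted satellite cells (SC cultures, on laminin-521), and donors 4, 7 and 8 were sorted fibro-adipogenic progenitors (FAP cultures, on collagen I). Donor 3 was sequenced in Muscle alone. The sample records name SCs and FAPs for P0 as well, whereas the study's methods describe unsorted cells, and P0 was taken as unsorted here. Every kind of culture held both calves and adult animals, the unsorted cultures came from females and the other cultures from both sexes, and neither age nor sex entered a test. The groups differed in timepoint, cell type and culture, and the labels name no genetic change or drug.

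DNA is copied once per cell cycle. In G1, the origin recognition complex (ORC1 and ORC6 are subunits) together with CDC6 and CDT1 loads the MCM2 to MCM7 ring onto origins, which is called licensing. In S phase, CDC45 and the GINS subunits GINS1 to GINS4 turn the ring into an active helicase, POLA1 and PRIM1 prime new strands, POLE and POLD1 extend them, and the sliding clamp PCNA, loaded by RFC2 to RFC5, holds the polymerases on DNA while FEN1 and LIG1 join the lagging strand. Ribonucleotide reductase (RRM1, RRM2), thymidylate synthase (TYMS) and thymidine kinase (TK1) supply nucleotides, E2F1 and the E cyclins CCNE1 and CCNE2 control entry into S phase, and CHAF1A, CHAF1B, UHRF1, SLBP and CLSPN serve chromatin copying and the replication checkpoint. Satellite cells (SCs), the stem cells of muscle fibres, and FAPs, the connective tissue progenitors, are both quiescent in resting muscle and divide in culture.

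Each timepoint was 1 library of pooled donors, so timepoint and library cannot be told apart. Between 2772 (P8) and 10405 (P5) cells per timepoint were used, with a median of 4184 unique molecular identifiers (UMIs, counted transcripts) per cell in Muscle and 18340 to 27239.5 in culture. Any pair of timepoints shared 4 to 29 cell barcodes. Counts were summed per donor and per authors' cell type label (pseudobulks of at least 10 cells), and levels are CPM (counts per 1000000 UMIs of that sum), given over donors as mean ± SD or as the lowest, median and highest. In such sums, fewer cells in S phase and less RNA of a gene per cell cannot be told apart. Labels were checked against marker genes. SC markers summed to 1890 ± 560 CPM in Muscle SCs and 179 ± 50.5 in Muscle FAPs (n = 10 each), and at P0 to 199 ± 55.4 in SCs and 23.4 ± 3.37 in FAPs (n = 9 each). In cultured SCs, however, the FAP marker list was the highest list at P0, P2, P5 and P8, with 2552 ± 330 CPM at P0, and in lymphatic endothelial cells (LECs) and monocytes/macrophages at P0 the vascular and the neutrophil lists stood above their own. Relative to P0 FAPs, the FAP markers stood at 46.6% in SCs, 40.0% in smooth muscle and mesenchymal cells (SMMCs), 35.6% in monocytes/macrophages, 14.7% in LECs and 10.1% in vascular endothelial cells (VECs). The FAP markers of FAPs themselves were at 35566.5 CPM in Muscle and 5482 at P0, so these shares cannot be set beside Muscle; as levels, they went from 1056 to 2552 in SCs, from 1484 to 2192 in SMMCs, from 213 to 1950 in monocytes/macrophages, from 81.3 to 804 in LECs and from 481 to 556 in VECs. The summed replication genes stood at 93.3%, 82.5%, 56.8%, 49.7% and 45.0% of P0 FAPs in the same types, and the part of FAP RNA in these levels was not tested.

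The replication genes rose steeply in FAPs over the first 72 h of culture. Their summed level lay between 380 and 599 CPM in Muscle FAPs (median 454, n = 10 donors) and between 1903 and 2562 at P0 (median 2185, n = 9). No P0 donor came near a Muscle donor. Of the 38 genes, 34 passed the filter on low counts, and 31 of these were called higher and 0 lower (edgeR quasi-likelihood test, Benjamini-Hochberg adjusted p below 0.05 and absolute log2 fold change, log2FC, above 1). Among all genes tested, 20.9% were called higher. The median log2FC was 2.90 for the replication genes against 0.026 for all genes, and it is the same with ORC1 and CCNE1, which had 0 and 1 Muscle UMIs, set to the ratios given for them here. A gene at zero in Muscle can pass the filter through its P0 counts alone; with no filter, 36 of 38 were called.

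**Figure D1:**
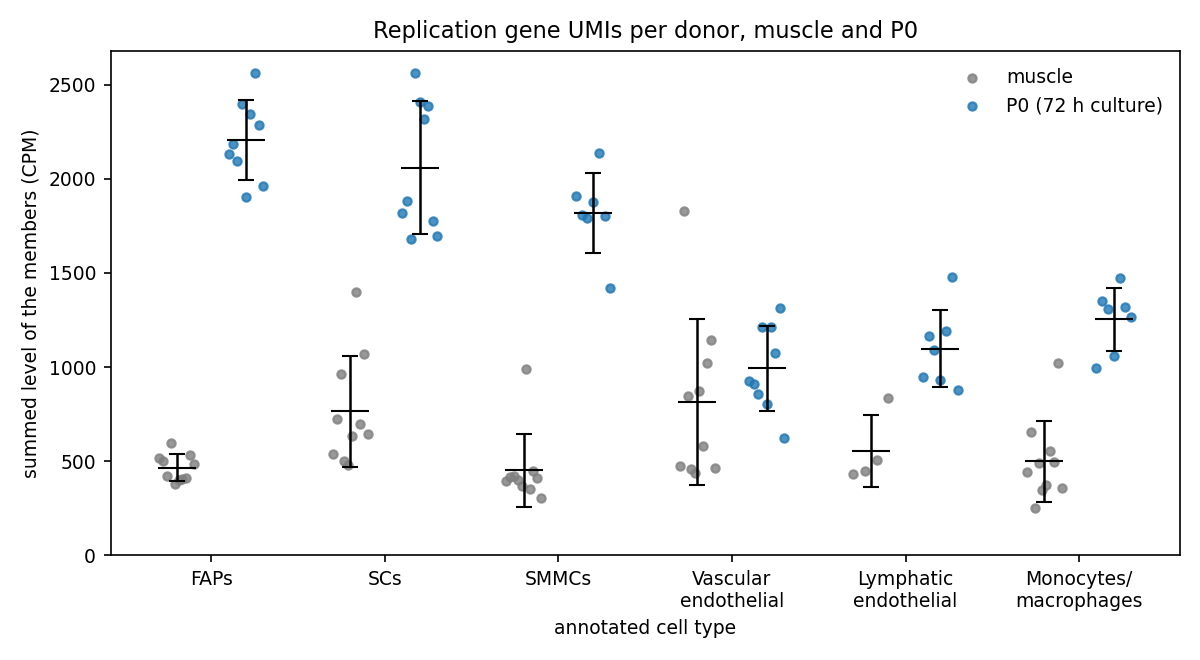
Summed level of the 38 replication genes (CPM) in Muscle and at P0 for 6 cell types; each point is 1 donor and bars give the mean and SD. FAPs separate fully (380 to 599 in Muscle, 1903 to 2562 at P0), whereas VECs overlap, with a Muscle donor at 1828 above every P0 donor.

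Among licensing genes, all 9 that were tested rose in FAPs. MCM5 (ENSBTAG00000015595), a ring subunit, lay at 3.70 to 19.7 CPM in Muscle (median 8.63) and at 103 to 142 at P0 (median 117), a log2FC of 3.59 ± 0.16 (SE, adjusted p = 3.0e-16). MCM2 stood at 9.04 to 25.9 in Muscle (median 16.5) and 63.5 to 91.3 at P0 (median 84.1), a log2FC of 2.43. The 2 groups did not overlap for either gene. CDC6, a loading factor, had 5 UMIs in all Muscle FAPs and 13.5 to 21.0 CPM at P0 (median 17.4), a log2FC of 4.77 ± 0.33. ORC1 was at 0 in every Muscle donor and at 13.1 to 22.6 CPM at P0 (median 16.4), at least 43.3-fold higher when Muscle is set to 3 UMIs over the group. ORC6, another subunit of the same complex, rose far less, with a log2FC of 1.17 (medians 17.9 and 41.1). CDT1 did not pass the filter; its 3 Muscle UMIs gave a ratio of pooled levels of 4.65 (95% interval 1.57 to 22.7, counting error only).

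Helicase activation followed the same course, with 4 of 4 tested genes called. GINS2 had a median of 0 in Muscle (highest donor 5.35) and of 46.9 at P0 (37.0 to 54.0), a log2FC of 5.05, and CDC45 rose by a log2FC of 3.26 ± 0.24. GINS3 did not pass the filter, and its levels overlapped (0 to 9.08 in Muscle, 3.99 to 6.10 at P0).

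The DNA polymerases and their primase varied in level and in size of change. POLA1 (ENSBTAG00000008170), the catalytic subunit of the priming polymerase, lay at 33.9 to 62.9 CPM in Muscle FAPs (median 39.6) and 44.7 to 64.3 at P0 (median 52.9). These groups overlapped, 6 of 9 donors were higher at P0, and the log2FC of 0.44 ± 0.10 (adjusted p = 0.00033) was below the fold limit. PRIM1, its primase partner, had medians of 1.77 and 2.13 and was not tested. POLD1 rose by a log2FC of 2.67, and POLE had 1 Muscle UMI, with a pooled ratio of 26.2 (95% interval 4.68 to 1037).

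Among the clamp, clamp loader and lagging strand genes, 6 of 7 were called. PCNA (ENSBTAG00000006065) went from 51.7 to 107 CPM in Muscle (median 72.6) to 224 to 281 at P0 (median 241), without overlap, a log2FC of 1.83 ± 0.10 (adjusted p = 1.4e-14). LIG1, the ligase of the lagging strand, rose by 3.73, FEN1 by 2.47 and RFC4 by 1.93 on the log2 scale, whereas RFC5 at 0.94 stayed below the fold limit with an adjusted p of 7.4e-09.

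Nucleotide supply genes were all called. RRM2, the subunit of ribonucleotide reductase made in S phase, lay at 0 to 14.8 CPM in Muscle (median 0.22) and 75.6 to 144 at P0 (median 109), a log2FC of 5.73 ± 0.34. RRM1, the large subunit, rose by 2.35 (medians 25.2 and 114). TK1 (ENSBTAG00000007121) had the smallest adjusted p of the set, 1.2e-17, with a log2FC of 4.66 ± 0.17 (1.76 to 11.1 in Muscle, median 3.11, and 66.8 to 101 at P0, median 89.5), and TYMS rose by 2.72. Each P0 donor was above each Muscle donor for all 4 genes, and the groups did not overlap for 34 of the 38 replication genes. The share of all genes without overlap was not counted, while 20.9% of all genes were called higher.

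The chromatin group held one of the steepest rises. UHRF1 (ENSBTAG00000002224), which binds hemimethylated DNA behind the fork, was at 0 to 9.04 CPM in Muscle FAPs (median 0) and 98.9 to 165 at P0 (median 141), a log2FC of 5.75 ± 0.32 (adjusted p = 3.9e-13). CLSPN, a checkpoint adaptor, rose by 4.98 and CHAF1A, a subunit of the histone chaperone CAF-1, by 3.72. SLBP, which binds histone mRNA, changed by 0.91, below the fold limit. Of the G1/S regulators, E2F1 rose by 3.51 and CCNE2 by 2.29, and CCNE1, with 1 Muscle UMI, had a pooled ratio of 50.0 (95% interval 8.94 to 1975). When every pseudobulk was thinned to the smallest UMI total of the comparison, 15 genes could be tested and 13 were called higher.

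**Figure D2:**
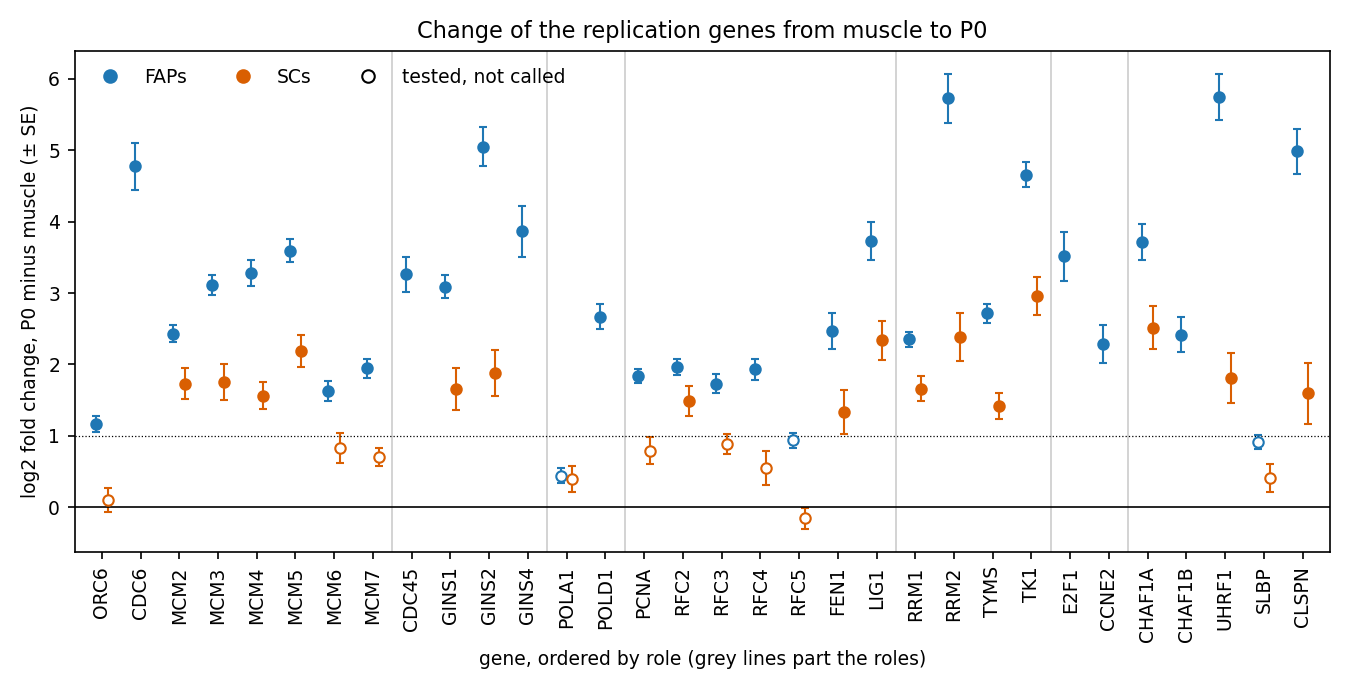
log2FC (P0 minus Muscle) with its SE for FAPs and SCs, genes ordered by role; open symbols were not called and the dotted line marks a log2FC of 1. ORC1, CCNE1, CDT1 and POLE are left out for low counts. UHRF1, RRM2 and GINS2 lie higher in FAPs (5.75, 5.73 and 5.05) than in SCs (1.81, 2.39 and 1.88), and POLA1 lies near 0.4 in both.

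In SCs the summed level of the replication genes was also higher at P0. The summed level was 479 to 1398 CPM in Muscle SCs (median 671, n = 10) and 1681 to 2564 at P0 (median 1882, n = 9), again without overlap. Of 25 genes that passed the filter, 16 were called higher and 0 lower, with a median log2FC of 1.57 against -0.0050 for all genes, of which 15.8% were called higher. The nucleotide genes were again all called: TK1 by 2.96 ± 0.26 (medians 6.95 and 71.4), RRM2 by 2.39 (8.12 and 79.5), RRM1 by 1.66 and TYMS by 1.42. MCM5 rose by 2.18 (4.13 to 53.6, median 20.3, in Muscle and 78.2 to 155, median 102, at P0) and MCM2 by 1.73. CHAF1A rose by 2.51, LIG1 by 2.34, GINS2 by 1.88 and FEN1 by 1.33. UHRF1 rose by 1.81 ± 0.35, yet its groups overlapped (0 to 97.6, median 12.8, against 84.1 to 146, median 109). CLSPN overlapped as well (log2FC 1.60). ORC1 was at 0 in Muscle SCs and at least 12.3-fold higher at P0.

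Genes not called in SCs were ORC6 (log2FC 0.10), MCM6 (0.83), MCM7 (0.70), PCNA (0.79, medians 106 and 203, adjusted p = 0.00062), POLA1 (0.40), RFC3 (0.88), RFC4 (0.56), RFC5 (-0.15) and SLBP (0.41). Neither of these comparisons changed its count with donor as replicate block, where 31 genes in FAPs and 16 in SCs were called (paired donors). Muscle SCs held 97693 to 450674 UMIs per donor and P0 SCs 920291 to 9630375, and the part of this in the count was not tested. With no filter 30 of 38 genes were called higher in SCs, and after thinning only 3 could be tested and 1 was called.

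The difference between the FAP and the SC response was tested directly. Of 33 genes tested, 13 had a larger P0 minus Muscle change in FAPs and 0 a smaller one, against 7.6% of all genes with a larger change. The median of the difference was 0.92 (log2) against 0.032 for all genes. The 2 types also differed in their starting level: the summed level had a median of 671 CPM in Muscle SCs and 454 in Muscle FAPs. At P0 the medians were 1882 and 2185, and 0 of 38 genes were called between SCs and FAPs. A larger change in FAPs is thus no higher level at P0, and the Muscle levels of the 2 types were not tested against each other. The largest differences were those of UHRF1 (3.73 ± 0.62, adjusted p = 8.6e-06), CLSPN (3.16), RRM2 (3.12) and GINS2 (2.95). In the licensing ring MCM3, MCM4, MCM5 and MCM7 were called, with differences of 1.15, 1.5, 1.2 and 1.03, and MCM2 (0.49) was not. The sizes for CDC45, TK1, GINS1, RFC4 and TYMS were 1.63, 1.48, 1.22, 1.17 and 1.08. POLA1 (-0.17) and CHAF1B (-1.07, adjusted p = 0.23) were the members with a difference below 0. ORC1 gave no usable estimate because both Muscle groups were at 0. The summed level of 20 mitosis genes was 61.4 to 1796 CPM per donor in Muscle SCs and 16.04 to 144 in Muscle FAPs. Only the SCs of donors 1 (93.9) and 3 (61.4) lay within the FAP range, and those of all other donors stood at 434 or above. This difference was not tested. In the SCs of donor 5 it was 1379 beside a replication sum of 633. After thinning, 6 genes could be tested and 1 was called.

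Muscle and P0 were compared in 4 other cell types, in which 3 to 19 of the 38 genes could be tested. In these types, as in FAPs and SCs, a gene low in Muscle can pass the filter through its P0 counts alone. This can raise both the share called higher among the genes tested and their median log2FC. In SMMCs the summed level went from 305 to 990 CPM (median 405, n = 10) to 1422 to 2137 (median 1808, n = 7). All 9 genes that passed the filter were called higher (15.1% of all genes), with a median log2FC of 2.11 against 0.011. UHRF1 rose by 4.77 ± 0.45 (medians 0 and 88.2), RRM1 by 2.60, TYMS by 2.32, MCM7 by 2.20 and PCNA by 1.33, each higher in 7 of 7 donors. With no filter 34 of 38 were called, with pseudobulks of at least 30 cells 21, and after thinning 0 of the 1 gene tested.

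In VECs the Muscle and P0 levels overlapped. Muscle VECs ranged from 437 to 1828 CPM (median 715, n = 10), and P0 VECs from 625 to 1315 (median 924, n = 9), with complete overlap of the P0 range. Only MCM5 (log2FC 1.13) and GINS1 (1.12) of the 19 tested genes were called higher, against 15.6% of all genes; the median log2FC was 0.44 against -0.016. PCNA was 58.4 to 368 in Muscle (median 136) and 60.1 to 164 at P0 (median 123), and UHRF1 had medians of 32.9 and 37.5. TK1 had medians of 42.2 and 32.4. POLA1 was lower at P0 in 9 of 9 donors (medians 38.6 and 27.4), with a log2FC of -0.76 ± 0.20 (adjusted p = 0.0011) that did not reach the fold limit. With no filter 7 genes were called, by adjusted p alone 9, and after thinning 1. Monocyte/macrophage markers stood at 2196 ± 287 CPM in Muscle VECs and 18.7 ± 4.66 at P0, and glial markers at 505 ± 174 and 35.0 ± 13.5. The VEC markers themselves stood at 2921 ± 308 and 3545 ± 469. The part of these markers in the result was not tested. Whether the VEC response differed from that of FAPs was not tested.

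In monocytes/macrophages only 3 replication genes passed the filter. MCM7 rose by 1.93 ± 0.30 (medians 25.9 and 109), PCNA had a log2FC of 0.85 (adjusted p = 0.0022) and SLBP of -0.40 (adjusted p = 0.16), beside 14.3% of all genes called higher. With no filter 22 were called, and after thinning 1 gene could be tested and 0 were called. In LECs MCM7 (1.80 ± 0.46) and PCNA (1.03 ± 0.40) were called of 4 tested, beside 14.8%; with no filter 10 were called, and after thinning 0 genes could be tested. LECs of 4 Muscle donors had 0 UMIs of UHRF1 and RRM2, at least 4.34- and 3.16-fold higher at P0. With donor as replicate block (paired donors) only MCM7 was called in LECs, and PCNA had an adjusted p of 0.051. Leaving out donor 2, 4, 7, 9 or 10 also left 1. Summed levels in these 2 types went from 249 to 1022 (median 467) to 996 to 1471 (median 1310) and from 445, 507, 835 and 431 in the 4 Muscle donors to 881 to 1478 (median 1091). Muscle lymphocytes, not compared with culture, lay at 436 to 927 CPM (median 493, n = 10).

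**Figure D3:**
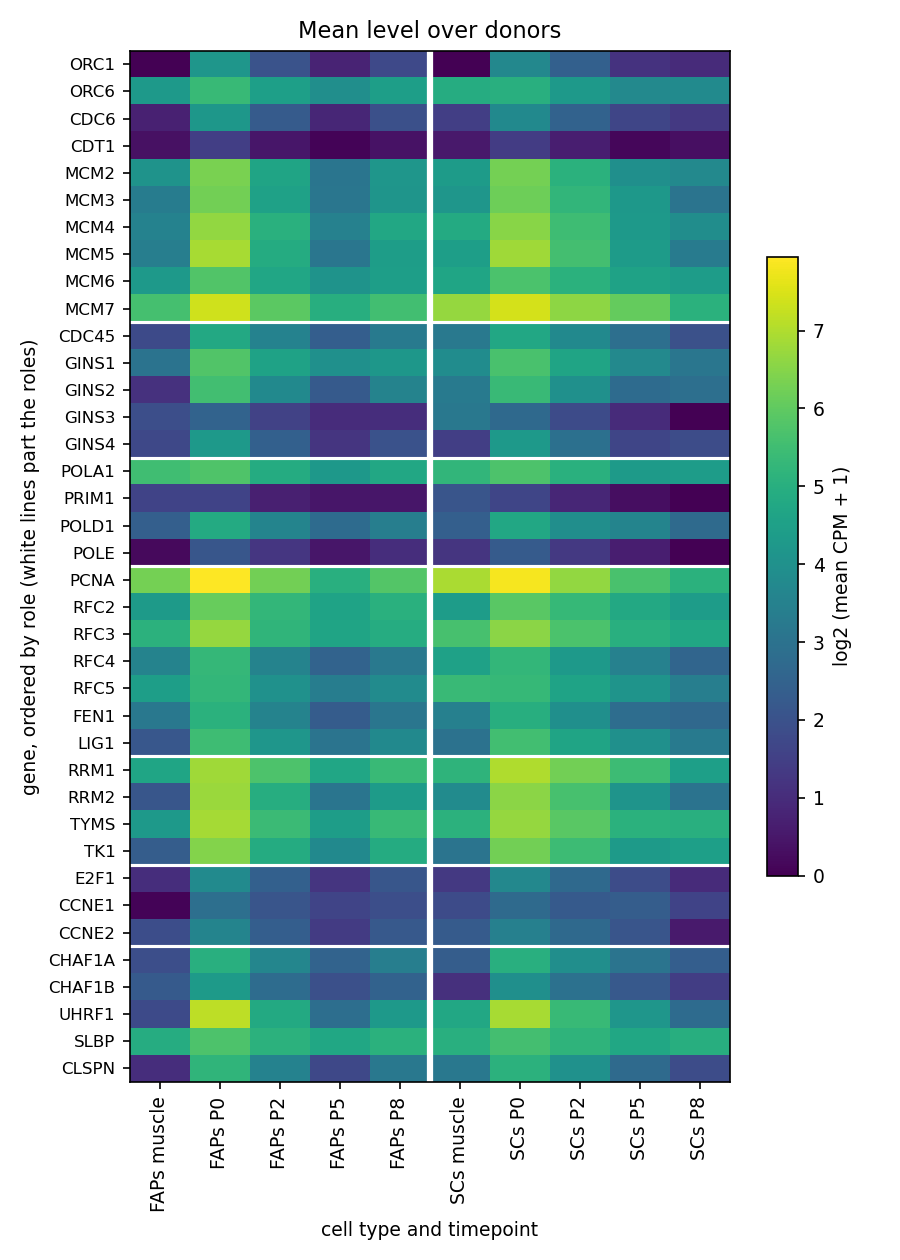
Mean level of each replication gene, as log2(CPM + 1), by role in FAPs and SCs at 5 timepoints; at P2 to P8, FAPs exclude SC cultures and SCs exclude FAP cultures. UHRF1 is highest at P0 in both types (141 in FAPs and 118 in SCs). POLA1 in FAPs stands at 44.3 in Muscle and 53.5 at P0, and is lower at P2 and lower again at P5.

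After P0 the replication genes of FAPs fell through P2 and P5. These comparisons used the 6 donors of the FAP and unsorted cultures at each timepoint. Summed levels were 1959 to 2562 CPM at P0 (median 2208), 469 to 1282 at P2 (median 732) and 317 to 434 at P5 (median 349). In FAPs of all cultures, FAP markers summed to 5482 ± 1053 CPM at P0, 23582 ± 12189 at P2 and 31229 ± 19127 at P5. SMMC markers stood at 54.7 ± 14.6, 609 ± 263 and 476 ± 266 (n = 9, 8 and 9 donors). The part of these marker changes in the fall was not tested. From P0 to P2 all 38 genes were tested, 32 were called lower and 0 higher, and the median log2FC was -1.44 against 0.042 for all genes, of which 9.79% were called lower. The largest falls were in licensing and chromatin genes: ORC1 (-2.37 ± 0.31), UHRF1 (-2.28 ± 0.34), CDT1 (-2.12) and CDC6 (-2.09). UHRF1 went from 119 to 165 (median 149) to 9.70 to 58.5 (median 25.5). PCNA fell by 1.58 on the log2 scale (medians 243 and 73.2) and RRM2 by 1.77 (medians 111 and 27.6). Not called were RRM1 (-0.95), CCNE1 (-0.87), ORC6 (-0.83), POLA1 (-0.74), RFC2 (-0.66) and SLBP (-0.51), all with adjusted p below the threshold.

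From P2 to P5, 21 of 37 tested genes were called lower and 0 higher, against 2.4% of all genes, with a median log2FC of -1.09 against 0.012. CDC6 fell by 2.19 ± 0.36 (medians 3.48 and 0.712), CLSPN by 2.11, UHRF1 by 2.02 and ORC1 by 2.01 on the log2 scale. PCNA fell by 1.16 (46.0 to 128 at P2, 26.0 to 37.5 at P5) without overlap. TYMS (-0.94), POLA1 (-0.60) and PRIM1 (-0.47) were not called. The count rested in part on donor 4, which had the highest P2 level (1282): without it 13 were called. By adjusted p alone 35 were called.

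FAPs of the same 6 donors were compared between P5 and P8. Their summed levels were 352 to 951 at P8 (median 587), higher than at P5 in 5 of 6 donors, whereas FAPs of SC cultures, outside this comparison, went from 1061 to 560 (donor 5), from 1552 to 1009 (donor 6) and from 1378 to 864 (donor 10). In the 6 donors 10 of the 35 genes tested were called higher and 0 lower, against 1.53% of all genes, with a median log2FC of 0.85 against -0.0051. These were CDC6 (1.78 ± 0.43), CLSPN (1.76), ORC1 (1.68), UHRF1 (1.47), GINS2 (1.44), MCM5 (1.29), MCM4 (1.23), CCNE2 (1.11), TK1 (1.07) and MCM3 (1.02). UHRF1 was higher in 5 of 6 donors (3.01 to 10.6, median 5.59, at P5 and 6.21 to 38.6, median 14.5, at P8), and P5 and P8 overlapped for all 10 of these genes. The number of calls, in a design of 6 donors, varied as single donors were left out: 0 genes were called without donor 4 and without donor 7, 1 without donor 9 and 6 without donor 1. The log2FC of CDC6 was then 1.31 (without donor 4) and 1.80 (without donor 7), with adjusted p of 0.093 and 0.068 by edgeR. With no filter 6 were called and after thinning 3. With donor as replicate block (paired donors) 11 were called, E2F1 and GINS4 among them and MCM3 not.

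**Figure D4:**
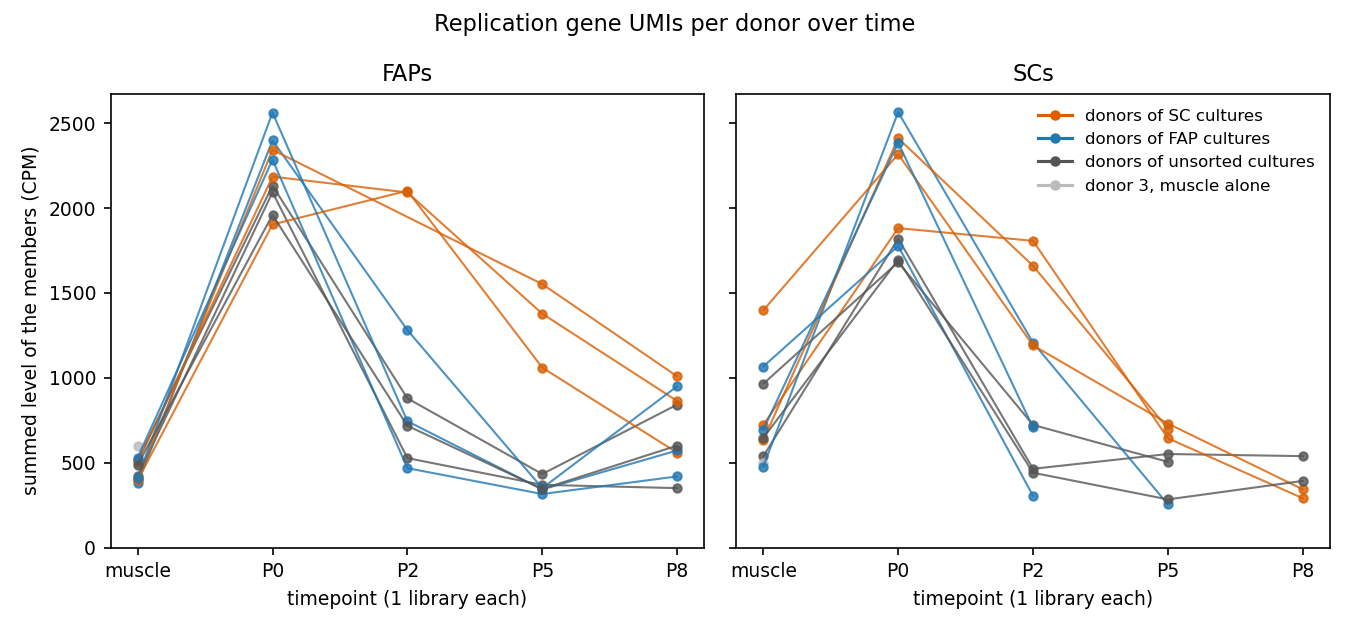
Summed level of the replication genes (CPM) per donor across the 5 timepoints for FAPs and SCs, lines joining the same donor and coloured by its culture after P0. FAPs of FAP and unsorted cultures fall to 317 to 434 at P5, while those of SC cultures stand at 1061, 1552 and 1378; SCs of SC cultures at P2 (1660, 1191, 1807) lie above those of unsorted cultures (465, 723, 442).

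The same passages were compared in SCs. Whether their fall differed from that of FAPs was not tested. In SCs of all cultures, myocyte markers stood at 0.653 ± 0.499 CPM at P0 and 711 ± 636 at P2 (n = 9 donors each). They stood at 2259 ± 1918 at P5 (n = 7) and 3018 ± 3739 at P8 (n = 4). FAP markers in these SCs went from 2552 ± 330 at P0 to 7552 ± 2696 at P2. The part of these markers in the fall was not tested. In the 6 donors of the SC and unsorted cultures, summed levels were 1681 to 2410 at P0 (median 1850), 442 to 1807 at P2 (median 957) and 285 to 731 at P5 (median 599). At P8 the 4 donors with at least 10 cells stood at 540 (donor 1), 344 (donor 6), 394 (donor 9) and 292 (donor 10). From P0 to P2, 7 of 36 tested genes were called lower and 0 higher, against 3.24% of all genes, with a median of -0.87 against -0.019. They were UHRF1 (-1.502 ± 0.47), GINS4 (-1.34), GINS2 (-1.31), MCM2 (-1.13), PCNA (-1.12), POLE (-1.12) and CHAF1B (-1.02). With donor as replicate block (paired donors) 18 were called lower, MCM5, CDC6 and ORC1 among them, and DESeq2 called 11. Leaving out donor 6 left 0, donor 1 left 1, donor 2 left 2, donor 9 left 3 and donor 5 left 4, while 12 were called without donor 10, and with no filter 2.

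From P2 to P5, 0 of 35 tested genes were called in SCs by edgeR and 0 by DESeq2, though 22 had an unadjusted p below 0.05 and all 35 estimates were negative (median -0.95 against -0.031). Of all genes 0.0835% were called lower. With donor as replicate block (paired donors) 5 were called lower, namely ORC1 (-1.85), GINS2 (-1.36), TK1 (-1.02), GINS3 and GINS4. From P5 to P8, 0 of 24 were called by either tool, 2 had an unadjusted p below 0.05 (MCM7 and MCM3), and the median was -0.49 against -0.0039, beside 0.098% of all genes called lower. The replicate block gave 1 call, MCM7, lower at P8. TK1 had medians of 19.3 and 21.2 at P5 and P8, and PCNA of 53.0 and 31.4. Whether SCs and FAPs differed in their change from P5 to P8 was not tested.

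SCs and FAPs were also compared with each other at P0. Of 38 genes 0 were called by edgeR and 0 by DESeq2, against 5.98% of all genes called higher in SCs, and the median log2FC (SCs minus FAPs) was -0.10 against 0.0068. Of these, 8 had an unadjusted and 6 an adjusted p below 0.05, all 6 lower in SCs and below the fold limit: ORC1 (-0.41 ± 0.13), CHAF1B (-0.39), CDC6 (-0.38), ORC6 (-0.35), UHRF1 (-0.25) and TYMS (-0.20). ORC6 was lower in SCs in 9 of 9 donors (23.9 to 38.8, median 30.03, against 32.1 to 45.1, median 41.1). PCNA differed by -0.10 ± 0.08. At P2 and P5 the SCs came from SC and unsorted cultures and the FAPs from FAP and unsorted cultures, so cell type and culture cannot be told apart there. At P2, 0 of 37 were called by either tool and 0 had an unadjusted p below 0.05, beside 7.21% of all genes called higher (median 0.37 against 0.034). At P5, CDC6 (1.51), UHRF1 (1.22), MCM5 (1.18) and CLSPN (1.11) of 36 genes were called higher in SCs, beside 9.15% of all genes (median 0.63 against 0.0033). Within the SC cultures, which were not compared in this way, the order of the P5 sums was the opposite, with 1061, 1552 and 1378 CPM in FAPs and 701, 731 and 645 in SCs of donors 5, 6 and 10. Only 3 donors had both types at P5 among those compared. With donor as replicate block (paired donors) 0 were called and CDC6 went to -0.34 (adjusted p = 0.71), and leaving out single donors gave 2 to 10 calls, with 10 without donor 1, 8 without donor 9 and 2 without any other donor.

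Replication gene levels were also compared by kind of culture. These comparisons were added after the levels per donor had been seen, and culture and animal cannot be told apart because each culture held 3 different animals. FAP-labelled cells that appeared in SC cultures stood apart at P5, with summed levels of 1061 (donor 5, 593 cells), 1552 (donor 6, 31 cells) and 1378 (donor 10, 70 cells) CPM, against 317 to 434 (median 349) in the 6 donors of FAP and unsorted cultures. Already at P2 they stood at 2102 (donor 5) and 2091 (donor 10), from only 19 and 12 cells. At P5, 29 of 38 genes were called higher and 0 lower (5.65% of all genes), with a median log2FC of 1.68 against -0.046.

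UHRF1 stood at 40.2, 93.7 and 63.8 CPM in FAPs of SC culture donors 5, 6 and 10 and at 3.01 to 10.6 (median 5.59) in the others at P5, a log2FC of 3.08 ± 0.37 (adjusted p = 0.00041). CLSPN was at 16.2, 39.5 and 24.8 against 1.49 to 4.18 (median 1.84), a log2FC of 3.21. RRM2 was at 50.9, 91.4 and 99.1 against 4.24 to 11.5 (median 6.53), a log2FC of 3.13. PCNA was at 108, 152 and 128 against 26.0 to 37.5 (median 30.1), a log2FC of 1.79. CDC6, the origin loading factor, stood at 5.31, 9.03 and 8.26 against 0.483 to 1.39 (median 0.712). In each of these 5 genes, picked from those called, all 3 SC culture donors exceeded all 6 others. The groups did not overlap for 35 of the 38 replication genes. The share of all genes without overlap was not counted, while 5.65% of all genes were called higher. Not called were ORC6, GINS1, POLA1 (0.65), POLE, PRIM1, RFC2, RFC3, SLBP and CHAF1B. Leaving out single donors gave 26 to 29 calls, and thinning left 18 of 25 tested. The FAP markers of the SC culture cells were lower too: across P2 and P5 they summed to 6450 to 11355 CPM against 17033 to 56446 in the other FAPs, with SC markers at 14.5 to 89.2 against 11.6 to 20.5, and their part in the result was not tested. At P8 the FAP markers stood at 9229, 12515 and 10654 in SC culture donors 5, 6 and 10 against 12211 to 45075 in the others, while the replication sums of the cultures overlapped (560, 1009 and 864 against 352 to 951, median 587): 0 of 34 genes were called by edgeR and 0 by DESeq2, 0 had an unadjusted p below 0.05, and the median was 0.31 against -0.0056, beside 0.316% of all genes.

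SCs of the SC and unsorted cultures were compared in the same way at P2. Summed levels were 1660 (donor 5), 1191 (donor 6) and 1807 (donor 10) in SC cultures and 465 (donor 1), 723 (donor 2) and 442 (donor 9) in unsorted cultures. The SCs in FAP cultures, which were not part of the test, stood at 1208 (donor 4, 95 cells), 708 (donor 7, 50 cells) and 306 (donor 8, 18 cells), so that donor 4 lay above 1 of the SC culture donors. Of 37 tested genes 26 were called higher in SC cultures and 0 lower, against 3.05% of all genes, with a median log2FC of 1.57 against 0.0022. ORC1 (2.86 ± 0.52), CLSPN (2.72) and CDC6 (2.37) differed most. UHRF1 stood at 71.1, 40.4 and 87.8 in SC culture donors 5, 6 and 10 and at 9.56, 23.3 and 9.04 in unsorted donors 1, 2 and 9, a log2FC of 2.17. POLA1 (0.74) again stayed below the fold limit. The calls rested on few animals: 0 remained without donor 1, 2 without donor 9, 4 without donor 5 and 13 without donor 10. At P5 the sums were 701, 731 and 645 against 552, 506 and 285, and 0 of 35 genes were called by either tool (1 by adjusted p alone, 14 with an unadjusted p below 0.05, 0.913% of all genes, median 0.66 against 0.0023); without donor 1, 3 were called.

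The donors of the SC cultures were already somewhat higher at P0. Their P0 SCs stood at 2410, 2317 and 1882 CPM and those of the later unsorted donors at 1819, 1681 and 1695. At P0, 0 of 37 genes were called by edgeR or DESeq2, 19 had an unadjusted p below 0.05, and the median log2FC was 0.32 against -0.0047, beside 0.0911% of all genes called. Within SC cultures 1 of 38 genes was called lower from P0 to P2, PRIM1 (-1.05 ± 0.26), against 4.09% of all genes, with a median of -0.50 against 0.0098; DESeq2 called 0, and 8 had an adjusted p below 0.05 irrespective of fold. Without donor 5 or donor 6 edgeR called 0, and without donor 10 it called 3. With donor as replicate block (paired donors) 1 gene was called as well, GINS4 in place of PRIM1, whose adjusted p was 0.053. Within unsorted cultures 32 of 35 were called lower, against 6.76% of all genes, with a median of -1.75 against 0.011. ORC1 (-3.06), CLSPN (-2.89) and UHRF1 (-2.81) fell most, POLA1 (-0.95), RFC2 (-0.66) and SLBP (-0.43) were not called, and without donor 9 the count was 18.

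The difference between these 2 changes was positive for all 37 genes tested, with a median of 1.22 (log2) against -0.022, and 28 had an unadjusted p below 0.05. Past the threshold were CHAF1A (1.76 ± 0.35), MCM2 (1.52 ± 0.34) and TYMS (1.19 ± 0.28), against 1.27% of all genes. MCM2 went from 79.3, 86.9 and 71.3 to 55.8, 35.2 and 64.4 in SC culture donors 5, 6 and 10, and from 69.3, 65.2 and 63.3 to 11.9, 20.1 and 9.95 in unsorted donors 1, 2 and 9. CHAF1A went from 34.1, 33.0 and 30.3 to 24.2, 16.9 and 28.4 in the former and from 27.2, 30.4 and 26.5 to 3.58, 8.25 and 4.82 in the latter. Both genes stood higher at P2 in every SC culture donor than in any unsorted donor. At P2 the 2 cultures did not overlap for 37 of the 38 replication genes and 35 of the 45 other replication genes. The share of all genes without overlap was not counted, while 3.05% of all genes were called higher in SC cultures at P2. The sums per donor had been seen to separate before this comparison was made, so the lack of overlap is no further support. The number of genes past the threshold for the difference of changes moved widely with the setting. With donor as replicate block (paired donors) 5 were called, CDC45 and GINS2 beside CHAF1A, MCM2 and TYMS. DESeq2 called 16, thinning gave 10 and no filter 5. The number was 0 without donor 1, 5, 9 or 10, 20 without donor 2 and 13 without donor 6.

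**Figure D5:**
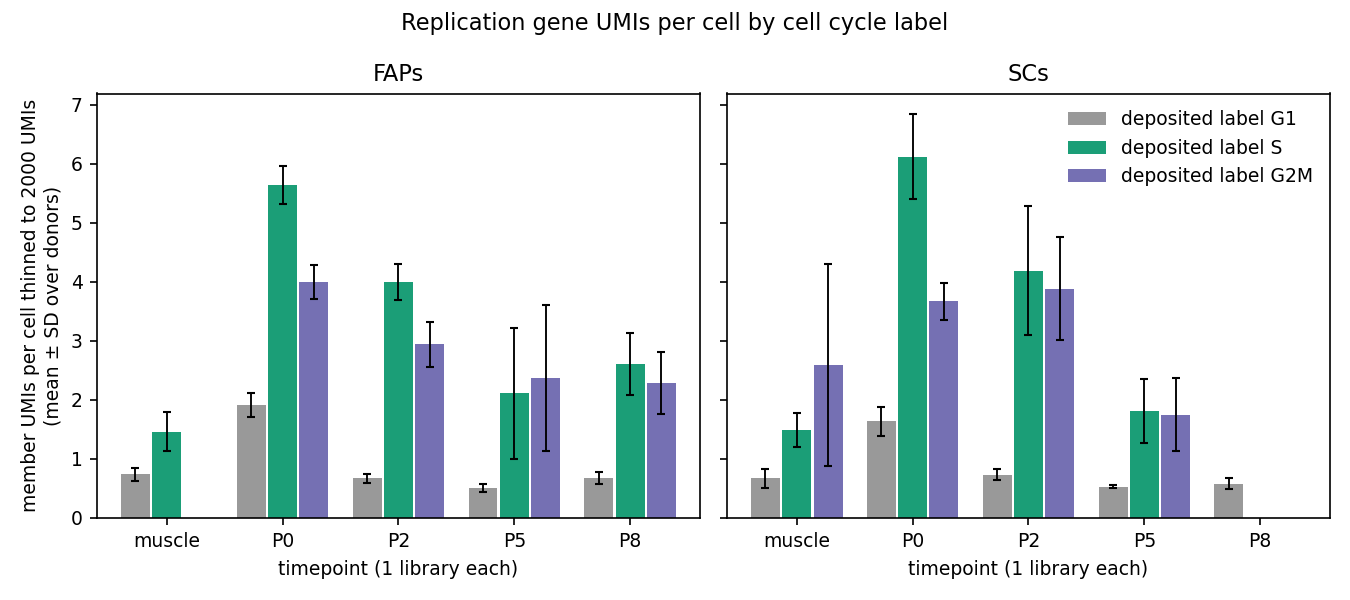
Replication gene UMIs per cell after thinning each cell to 2000 UMIs, by the authors' cell cycle phase label, for FAPs and SCs; bars are means and error bars SDs over donors. At P0 the S-labelled cells carry most in both types, while the S and G2M bars overlap within their SDs in FAPs at P5 and in SCs at P2; pooled over all cells, S-labelled FAPs held 5.67 at P0 and 1.39 in Muscle. Labels seen in fewer than 2 donors with enough cells are not drawn.

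The authors' phase labels were set beside these levels without a test, because they are taken to come from the expression of cell cycle genes, since S and G2M scores were deposited beside them. The gene list behind them is not given in the sources used here, so the genes were split by the S phase genes of a widely used scoring tool. Its older and its updated version were joined into 1 list, which holds 21 of the 38. In FAPs the S label covered 34.6% of cells in Muscle, 42.8% at P0, 14.5% at P2, 15.8% at P5 and 20.8% at P8, pooled over donors and all cultures, those of SC cultures included. As means over donors, which weight each donor equally, the shares were 33.5%, 42.8%, 20.6% (3.79% to 52.6%), 20.8% and 20.2%. The label did not carry the same level at each timepoint. After thinning each cell to 2000 UMIs, S-labelled FAPs held a mean of 1.39 replication gene UMIs in Muscle, 5.67 at P0, 4.15 at P2, 1.62 at P5 and 2.77 at P8 (3.95, 66.2, 72.1, 20.2 and 27.9 without thinning), pooled in the same way; the mean over donors at P5 was 2.11 ± 1.11 (n = 9). The thinning left out 38 of 1231 Muscle FAPs, 101 of 5756 at P0, 13 of 2616 at P8 and 0 at P2 and P5. G1-labelled FAPs held 0.701, 1.91, 0.656, 0.489 and 0.662. G1-labelled cells at P0 carried more than S-labelled cells in Muscle.

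The 17 genes outside that list were summed on their own. In P0 FAPs they summed to 281 ± 24.5 CPM in G1 and 777 ± 43.8 in S, higher in S in 9 of 9 donors, on average 2.78-fold. In Muscle FAPs the values were 107 ± 13.4 and 128 ± 40.1, higher in S in 4 of 10 donors. The listed genes differed between the labels in 10 of 10 Muscle donors, with 224 ± 28.9 in G1 and 543 ± 105 in S. LIG1 and CHAF1A, both outside the list, stood at 2.35 and 2.41 in G1 and 3.92 and 2.76 in S in Muscle FAPs, and at 16.95 and 11.4 in G1 and 52.8 and 45.9 in S at P0. UHRF1, on the list, was at 0 in G1 and 4.26 ± 6.67 in S in Muscle FAPs, and at 31.6 ± 5.70 and 195 ± 17.4 at P0. In SCs the unlisted genes were 1.27-fold higher in S than in G1 in Muscle (6 of 9 donors above G1) and 3.71-fold at P0 (9 of 9 donors). In G2M-labelled SCs they were 3.25-fold higher than in G1 in Muscle (6 of 6 donors) and 2.24-fold at P0 (9 of 9 donors). In VECs the S label covered 37.5% of cells in Muscle and 10.3% at P0, while their summed replication level had medians of 715 and 924.

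Other replication genes, a list of 45, were counted in the same comparisons. In FAPs from Muscle to P0, 26 of 41 tested were called higher and 1 lower (median log2FC 1.55), beside 20.9% of all genes called higher. WDHD1 (6.02), which links the helicase to the priming polymerase, rose from 4 Muscle UMIs, and E2F8, an atypical E2F repressor with 2 Muscle UMIs, had a pooled ratio of 217 (95% interval 60.1 to 1793). POLA2, the partner subunit of POLA1, went the other way, from 115 to 19.1 CPM (-2.55 ± 0.21). In SCs 5 of 23 were called higher and 2 lower (median 0.70), a share near the 15.8% of all genes called higher there. E2F8 (2.37) and BRCA2 (2.07) rose most, and RPA2 (-1.83), a subunit of the single-strand binding protein, and POLE4 (-1.64), an accessory subunit of polymerase epsilon, fell. From P0 to P2, 26 of 44 fell in FAPs (9.79% of all genes) and 7 of 43 in SCs (3.24%), and 0 rose. In FAPs from P2 to P5, 15 fell and 0 rose (2.4% of all genes fell), and from P5 to P8, 8 rose and 0 fell (1.53% rose). In FAPs of SC cultures at P5, 22 were higher (5.65% of all genes) and 1, CDC7 (-1.20), the kinase that fires origins, was lower. Mitosis genes, a list of 20 given for contrast, were all called higher in P0 FAPs (median 5.37), with MKI67 from 4.15 to 191 CPM. In P0 SCs 15 were called (median 1.38), and MKI67 went from 49.5 to 218. The P0 minus Muscle change was larger in FAPs for all 20 (median difference 3.69).

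Across all 159 pseudobulks, the replication genes did not form 1 uniform block. As a description, with n = 159 pseudobulks that share donors, libraries and depth, the correlation (Pearson r of log2 CPM) of a gene with the mean of the others was highest for UHRF1 (0.91), RRM2 (0.89), GINS2 (0.87) and CLSPN (0.85). It was lowest for PRIM1 (0.28), ORC6 (0.32), SLBP (0.34), POLA1 (0.37), GINS3 (0.38) and RFC5 (0.42). PRIM1 and GINS3 did not pass the filter on low counts in FAPs from Muscle to P0. The part of low counts in these correlations was not tested. ORC6, SLBP, POLA1 and RFC5 were also among the genes that missed the fold limit in SCs from Muscle to P0. Of 6747 genes compared, the non-members with the most similar pattern were PCLAF, SPC24 and MYBL2 (0.88 each), UBE2C and CENPW (0.87), MKI67 and NCAPG (0.85), H2AZ1 (0.85), CDC20 and DUT (0.84). UBE2C, MKI67 and CDC20 belong to the mitosis list and DUT to the other replication genes.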

How the data were processed

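Single cells from 5 libraries (Muscle, P0, P2, P5 and P8) were analysed from the deposited UMI counts per gene and cell, which the authors made with Cell Ranger 6.0.1 on the ARS-UCD1.2 bovine genome. The authors assigned cells to donors by genotype, kept singlets, filtered on quality and deposited cell type and phase labels; cell cycle effects were removed before clustering, and no further doublet calling was run here, so doublets within 1 donor remain. Totals per timepoint ran from 20977722 (Muscle) to 252316585 UMIs (P2), and intervals on ratios cover counting error only (95%, exact). The deposited S and G2/M scores per cell, computed by the authors, were not analysed beyond the phase labels. Every count column was assigned to a sample.

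UMIs were added up over the cells of each donor and type (at least 10 cells), scaled to CPM (counts per 1000000), with Python 3.11.15, numpy 2.4.6, pandas 2.3.3 and scipy 1.17.1, drawn with matplotlib 3.10.9, and tested in R 4.3.3 with edgeR 4.0.16 (quasi-likelihood, TMM factors, filterByExpr) across all genes, where calls needed both an absolute log2FC above 1 and a Benjamini-Hochberg adjusted p below 0.05. Log2 CPM values for ranking the genes most similar to the set use a prior count of 2. Folds against groups at 0 use a floor of 3 counts over the group. The fit was first tested on simulated data. Alternatives were DESeq2 1.42.0, RLE factors, no filter, at least 30 cells, a donor block, thinning, adjusted p alone and leaving out donors. Cells were thinned to 2000 UMIs for comparisons per cell.

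The 39 genes and both comparison lists (45 other replication and 20 mitosis genes) were chosen with earlier results of these data known. Named were set representatives of each role, the 3 largest called changes per comparison in each direction, any 5 or fewer members not called, the 2 largest changes of the other replication genes, and the 10 genes most similar to the mean of the set among those with a mean log2 level of at least 3. The 8 comparisons between and within cultures after sorting, including the one at P0 and the difference of changes, were added after the levels per donor had been seen. Donor numbers name animals, so equal numbers pair samples. The deviations of paired samples correlated by -0.155 to 0.204 (Pearson r) from Muscle to P0 and by 0.223 to 0.646 between later FAP timepoints. In SCs the range was 0.144 to 0.364 from P0 to P2, 0.315 to 0.623 from P2 to P5 and 0.179 to 0.514 from P5 to P8. Between SCs and FAPs of the same donor it was 0.187 to 0.427 at P0, 0.0272 to 0.190 at P2 and 0.0854 to 0.182 at P5. The main fits did not use this pairing, which only the donor block took up. UNG and promoter sequences were not analysed here.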

Additional observations from a re-analysis of the deposited data

Results flagged for a closer look

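In 3 of the 19 groups of donors checked, 1 donor stood far from the others in the summed level of the replication genes. How many such groups would arise by chance was not tested. All 3 of these groups were Muscle samples. Monocytes/macrophages of donor 8 (15 cells) reached 1022 CPM, with the next donor at 654. SMMCs of donor 5 (41 cells) reached 990, with the next at 446. VECs of donor 10 (138 cells) reached 1828, with the next at 1143.

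The change from Muscle to P0 differed between FAPs and SCs for 13 genes, each larger in FAPs (log2 difference, edgeR interaction term). In the licensing ring these were MCM3 (1.15), MCM4 (1.5), MCM5 (1.2) and MCM7 (1.03). Helicase activation gave GINS1 (1.22), GINS2 (2.95) and CDC45 (1.63), nucleotide supply gave RRM2 (3.12), TYMS (1.08) and TK1 (1.48), and the clamp loader RFC4 (1.17), UHRF1 (3.73) and CLSPN (3.16) completed the set. The summed replication level had a median of 671 CPM in Muscle SCs and 454 in Muscle FAPs, and of 1882 and 2185 at P0. Muscle SCs had summed mitosis gene levels of 61.4 to 1796 CPM per donor, and the part of these Muscle levels in the differences was not tested.

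In SCs the change from P0 to P2 differed between SC cultures and unsorted cultures for MCM2 (1.52), TYMS (1.19) and CHAF1A (1.76), each falling less in SC cultures. Culture and animal cannot be told apart here, and the comparison was added after the levels per donor had been seen. The number of genes past the threshold ran from 0 to 20 as single donors were left out.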

How the results depend on the processing

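The number of replication genes called kept within 1.5 times its value in 187 of the alternative settings and moved further in 82, and of single genes 4722 values kept their direction and side of the threshold, 99 came past it, 241 fell short of it and 1 reversed. That one was CDC6 in SCs against FAPs at P5, at -0.34 with donor as replicate block. DESeq2 gave 1 in LECs, 11 in SCs from P0 to P2, 0 within SC cultures and 16 for the difference of culture changes. With no filter on low counts the calls were 30 (SCs), 7 (VECs), 34 (SMMCs), 22 (monocytes/macrophages) and 10 (LECs) from Muscle to P0, 6 in FAPs from P5 to P8, 2 in SCs from P0 to P2, 2 in SCs against FAPs at P5, 0 within SC cultures and 5 for the difference of changes. With at least 30 cells SMMCs had 21. Donor as replicate block (paired donors) gave 1 in LECs, 18, 5 and 1 in SCs for P0 to P2, P2 to P5 and P5 to P8, 0 in SCs against FAPs at P5 and 5 for the difference of changes, and changed no other count by over 1.5 times. Thinning to equal depth left fewer genes to test, with 13 (FAPs), 1 (SCs), 1 (VECs) and 0 (SMMCs, monocytes/macrophages and LECs) called from Muscle to P0, 3 in FAPs from P5 to P8, 1 in SCs against FAPs at P5, 1 for the FAP and SC difference, 18 in FAPs by culture at P5, 0 within SC cultures and 10 for the difference of changes. By adjusted p alone the counts were 9 (VECs), 2 (monocytes/macrophages), 35 and 16 (FAPs, P2 to P5 and P5 to P8), 14 (SCs, P0 to P2), 6 and 17 (SCs against FAPs, P0 and P5), 1 (SCs by culture at P5) and 8 (within SC cultures). Leaving out 1 donor at a time gave 1 to 2 in LECs, 29 to 33, 13 to 23 and 0 to 14 in FAPs from P0 to P2, P2 to P5 and P5 to P8, and 0 to 12, 0 and 0 in SCs. It gave 0 at P2 and 2 to 10 at P5 in SCs against FAPs, 26 to 29 and 0 in FAPs by culture at P5 and P8, 0, 0 to 28 and 0 to 3 in SCs by culture at P0, P2 and P5, 0 to 3 within SC cultures, 18 to 34 within unsorted cultures and 0 to 20 for the difference of changes. Except where fewer genes or cells were tested, the cause was not tested. From Muscle to P0, 4 (FAPs) to 35 (monocytes/macrophages) of the 38 genes had too few counts to be tested.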
